A study of Mus musculus with 8 samples.

Results

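The genes described are those of 5 related groups of secreted and membrane-bound matrix enzymes and their inhibitors, in nuclear RNA of cortical GABAergic neurons. They were taken by symbol, as every matrix metalloproteinase (MMP), every numbered ADAMTS and ADAMTS-like gene, the tolloid proteases Bmp1, Tll1 and Tll2, and the tissue inhibitors of metalloproteinases (TIMPs) among the 55341 symbols of the count files. This gave 54 genes, namely 23 MMPs, 19 ADAMTS genes, 5 ADAMTS-like genes, 3 tolloids and 4 TIMPs. The families were chosen with earlier results of these data known, so the shares called below are descriptions. All mice were juvenile and had been made hypothyroid with propylthiouracil (PTU), which blocks the making of thyroid hormone and reached them through the mother during gestation. The PTU group (mice 9 to 12, n = 4) had no further treatment, and mice 13 to 16 (PTU+TH, n = 4) received thyroid hormone (TH) in the peritoneum 24 h before the brain was taken. All 8 mice carried a Cre-dependent reporter that marks the nuclei of GABAergic neurons, the inhibitory neurons of the cortex. Nuclei were sorted on that signal, with 1 library per mouse. The Cre driver, the exact age and the litters are not given in the sources used here, and no group of untreated mice with normal TH was analysed here, so the comparison is of TH against none in hypothyroid animals.

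Proteases of these groups carry zinc at the active site and cut proteins of the extracellular matrix or the cell surface. ADAMTS enzymes cut the large proteoglycans of brain matrix, procollagens, reelin and other targets, whereas ADAMTS-like proteins share their binding modules but have no protease domain. Tolloids such as Bmp1 trim procollagens and release bone morphogenetic proteins from the antagonist chordin. Membrane-type MMPs act at the cell surface, and TIMPs block MMPs and some ADAMTS enzymes. In the cortex, the perineuronal net, a proteoglycan coat around parvalbumin neurons, is built from substrates of these enzymes.

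Library totals lay between 21762810 and 29084071 counts, so that 1 count equals 0.0344 to 0.0495 CPM (counts scaled to a common library total with TMM factors). The GABAergic markers Gad1 and Gad2, which encode the enzymes that make GABA, lay at 389.4 to 546.4 and 392.4 to 481.3 CPM over the 8 libraries. Of the 7 excitatory neuron markers, Cux2 made up most of the summed level, at 137.1 to 204.8 CPM per library. Slc17a7, the vesicular glutamate transporter of cortical excitatory neurons, differed between libraries, at 50.7, 51.4, 22.8 and 15.8 CPM in mice 9 to 12 and 44.0, 23.9, 57.9 and 28.0 CPM in mice 13 to 16. Libraries differed in markers of other cells. The 6 endothelium markers summed to 161 CPM in PTU mouse 10 against 33.7 to 54.3 CPM in the other PTU mice, and to 114 and 85.9 CPM in PTU+TH mice 15 and 13 against 49.7 and 35.6 CPM in mice 16 and 14. Counts of 4 Y-linked genes were 0 in PTU+TH mice 15 and 16 and summed to 7960 to 11548 in each of the other 6 libraries. None of the tested markers was called in the lists for excitatory neurons (0 of 7), striatal GABAergic neurons (0 of 6), endothelium (0 of 6), mural cells and fibroblasts (0 of 9), astrocytes (0 of 6), oligodendrocytes (0 of 6), their precursors (0 of 5) or microglia (0 of 6), and the summed levels of each list overlapped between the groups. A fitted change above 0 was found in 5 of 6 oligodendrocyte, 5 of 6 microglia and 4 of 5 precursor markers. The count was 4 of 6 for astrocytes and 6 of 7 for excitatory neurons. It was 5 of 9 for mural cells and fibroblasts, and 2 of 6 each for endothelium and striatal neurons. Gfap, Gpr17 and P2ry12 were listed at 0, and each lies inside another gene. Lists for classes of GABAergic neurons held 1 called gene each. In the parvalbumin list this was Syt2 (higher), and 3 of its 4 tested markers had a fitted change above 0. In the LAMP5 list it was Gabrd (higher), and 3 of 5 were above 0. It was Calb1 (lower) in the SST list and Htr3a (lower) in the VIP list, and all 5 markers of each of these were below 0. The summed VIP markers did not overlap between the groups (224 to 336.5 CPM in the PTU mice, 208.7 to 218.9 CPM in the others), whereas the sums of the other 3 classes did. The genes that name the classes were not called (edgeR adjusted p 0.369 to 0.958). Their fitted log2 fold changes were 0.50 for Pvalb, -0.09 for Lamp5, -0.09 for Sst and -0.29 for Vip. The part of such marker differences in the results below was not tested. In bulk samples, fewer cells of a class and less RNA per cell cannot be told apart.

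Of the 54 genes, 40 had enough counts to be tested, and 4 of these (10%) differed between the groups at an adjusted p under 0.05 (edgeR quasi-likelihood test, Benjamini-Hochberg over 17355 genes). Over all tested genes 2.12% were called, 1.49% higher and 0.634% lower in PTU+TH. Adamts2 and Adamtsl5 were higher after TH, and Adamts1 and Tll2 were lower. The groups were fully separated, with no overlap between libraries, in 7 of the 40 genes (17.5%), against 8.71% of all tested genes. They were 4 with PTU+TH above (background 4.68%) and 3 with PTU+TH below (background 4.03%). Besides the 4 called genes these were Adamts14, Adamts17 and Adamts20. The median log2 ratio (the fitted log2 fold change of PTU+TH over PTU) was 0.06 over the 40 genes and -0.01 over all tested genes, with 21 of the 40 above 0. The median size of the change without its sign was 0.23 for the 40 and 0.15 for all.

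**Figure D1:**
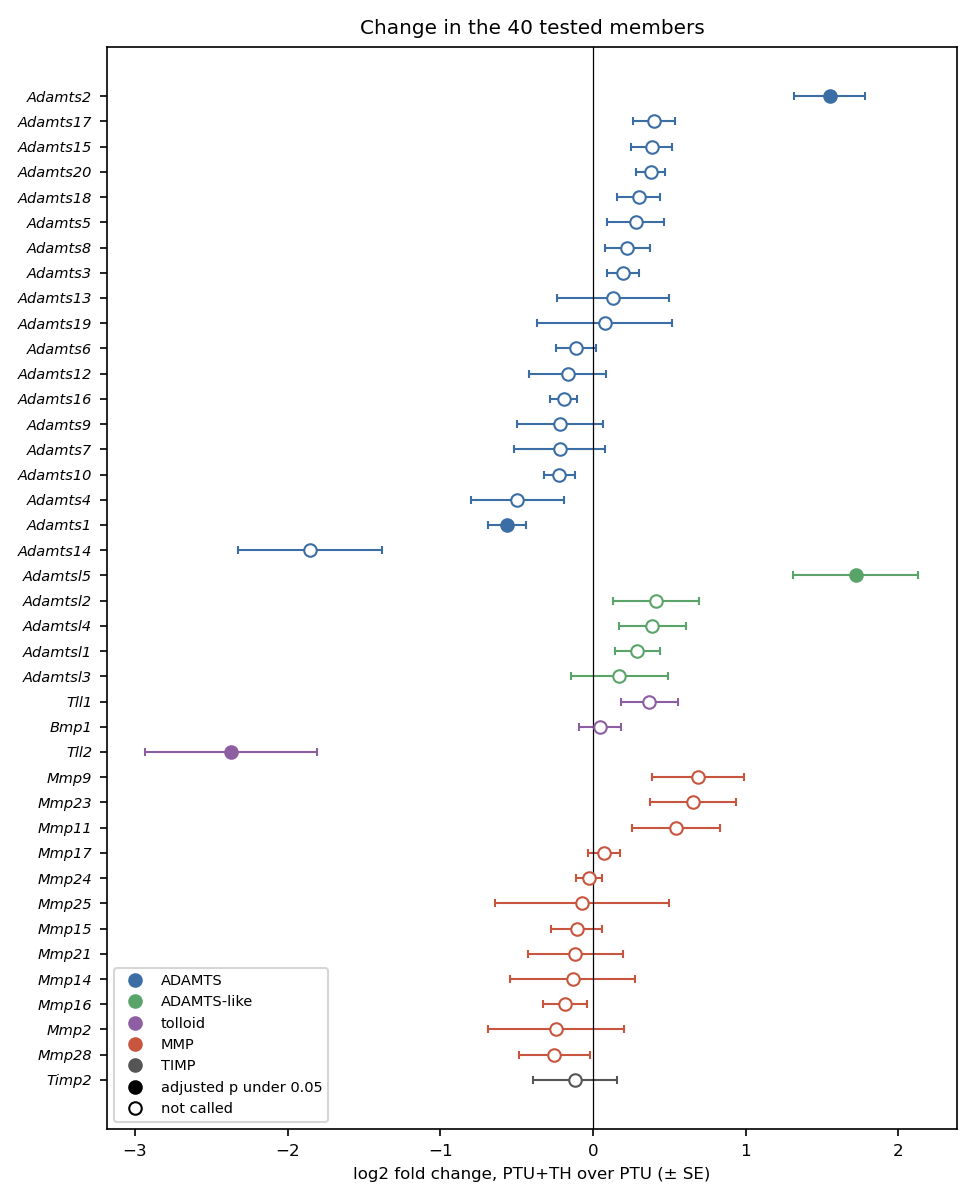
Log2 fold change of PTU+TH over PTU (horizontal axis) with its standard error for the 40 tested genes, coloured by group. Filled points are the 4 genes called by the edgeR quasi-likelihood test, Adamts2 and Adamtsl5 on the right and Adamts1 and Tll2 on the left, and of the open points only Adamts14, at -1.85, lies beyond 1 on either side.

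The clearest difference was in Adamts2 (chromosome 11, 50602084 to 50807573, plus strand, GRCm38), which encodes an enzyme that removes the amino-terminal propeptide of fibrillar procollagens and can also cut reelin. It stood at 3.64, 4.21, 3.76 and 3.67 CPM in PTU mice 9 to 12 and at 13.4, 6.43, 14.4 and 10.7 CPM in PTU+TH mice 13 to 16. The PTU mice were close to each other, and each PTU+TH mouse was above all of them, mouse 14 by the least. The means were 3.82 ± 0.27 and 11.2 ± 3.57 CPM (± SD over the 4 libraries of a group, here and below), a 2.93-fold rise (log2 ratio 1.55, SE 0.23, edgeR adjusted p = 0.00332). With any 1 of the 8 libraries left out, Adamts2 was still called (edgeR adjusted p from 0.000554 to 0.0168). Without mice 15 and 16, which had no Y-linked counts, the log2 ratio was 1.37 with an edgeR adjusted p of 0.102, and with Y-linked counts as a covariate it was 1.37 with an adjusted p of 0.0507.

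The order of the PTU+TH mice by Adamts2 (15, 13, 16, 14) was also their order by the summed markers of endothelium (114, 85.9, 49.7 and 35.6 CPM), mural cells and fibroblasts (84.1, 63.5, 32.0 and 23.6 CPM), astrocytes (373.6, 261.6, 198.7 and 130.4 CPM), oligodendrocytes (193.5, 125.3, 118.4 and 94.5 CPM) and oligodendrocyte precursors (40.4, 23.8, 16.3 and 12.2 CPM). The summed markers of microglia (78.0, 69.2, 60.6 and 62.5 CPM in mice 15, 13, 16 and 14) did not follow it. Slc17a7 did (57.9, 44.0, 28.0 and 23.9 CPM), whereas the sum of all 7 excitatory neuron markers, most of it Cux2, did not (278.2, 244.6, 245.6 and 232.4 CPM). Mouse 15 was the highest of all 8 libraries in the lists of astrocytes, oligodendrocytes and their precursors. PTU mouse 10 was the highest in endothelium and mural markers, at 161 and 108 CPM, and had the highest Adamts2 of its group, 4.21 CPM against 3.64 to 3.76 CPM, which was below every PTU+TH mouse. PTU mouse 9, with the most oligodendrocyte and precursor markers of its group (123.5 and 28.3 CPM), had the lowest Adamts2. The part of these cells in the difference in Adamts2 was not tested.

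**Figure D2:**
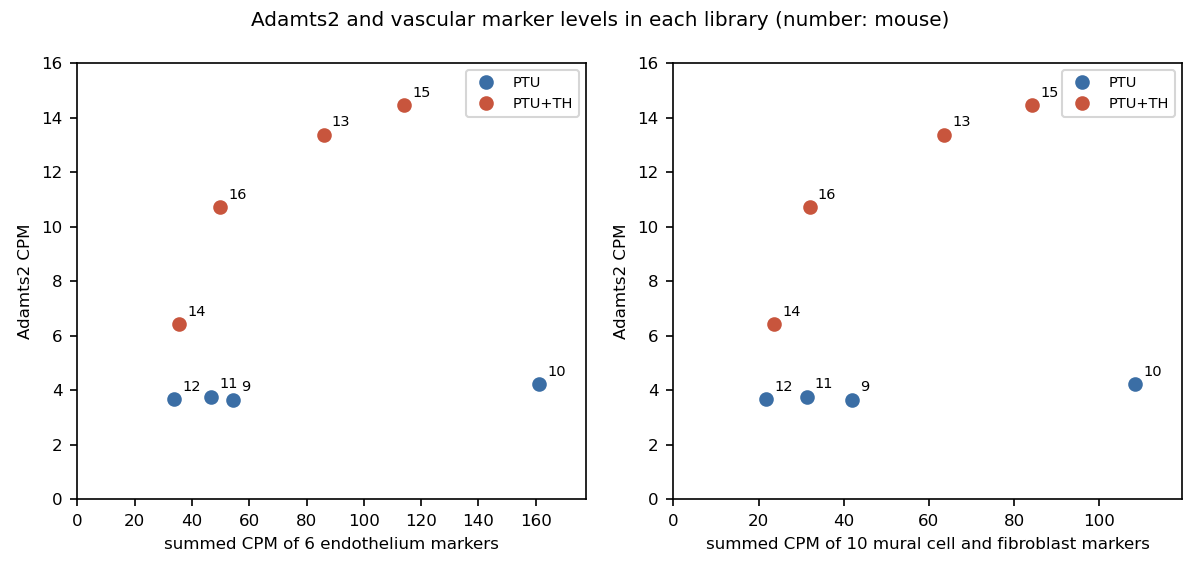
Adamts2 CPM (vertical axis) against the summed CPM of 6 endothelium markers (left) and 10 mural cell and fibroblast markers (right), 1 point per library with its mouse number. PTU mouse 10 has the highest marker sums and 4.21 CPM of Adamts2, whereas the 4 PTU+TH mice lie between 6.43 and 14.4 CPM.

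Relatives of Adamts2 also process procollagen amino ends. Adamts14 (chromosome 10, 61197112 to 61273438, minus strand) had 19, 28, 10 and 24 counts in mice 9 to 12 and 5, 10, 3 and 4 in mice 13 to 16. The groups did not overlap on the CPM scale, with PTU at 0.49 to 1.05 CPM and PTU+TH at 0.14 to 0.34 CPM, the opposite order to Adamts2, but at these counts the difference was not called (log2 ratio -1.85, SE 0.47, edgeR adjusted p = 0.0643). DESeq2 called it, at an adjusted p of 0.0386. Adamts3, which is known to cut reelin, averaged 23.1 ± 1.33 CPM without TH and 26.5 ± 2.22 CPM with it, and the difference did not pass (log2 ratio 0.20, edgeR adjusted p = 0.494).

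Adamts1 (chromosome 16, 85793827 to 85803113, minus strand) encodes a protease of versican and aggrecan. It was at 17.05, 15.2, 15.8 and 16.6 CPM in PTU mice 9 to 12 and at 9.45, 11.3, 11.9 and 11.1 CPM in PTU+TH mice 13 to 16. The groups were separated by a gap of over 3 CPM, wider than the range within either group. The gene was 1.48-fold lower after TH (16.2 ± 0.82 against 10.9 ± 1.05 CPM; log2 ratio -0.56, SE 0.13, edgeR adjusted p = 0.0361). The library richest in endothelium markers had the lowest Adamts1 of its group in PTU (mouse 10) and the highest in PTU+TH (mouse 15). The call was lost whichever of the 8 libraries was left out (edgeR adjusted p 0.0537 to 0.113) and without mice 15 and 16 together (0.193). It was also lost with Y-linked counts as a covariate (edgeR adjusted p = 0.11) and library totals only (0.0771). The log2 ratio stayed between -0.64 and -0.50 under the 18 alternatives, of which 11 ended the call. Adamts5, another aggrecan protease, lies on the same strand with 53.1 kb between the 2 genes, and was not called, at 6.06 ± 1.15 and 7.38 ± 1.13 CPM (log2 ratio 0.28, edgeR adjusted p = 0.616).

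Tll2 (chromosome 19, 41082753 to 41206835, minus strand), a tolloid protease that can cut the propeptide of myostatin, was lower after TH at few counts. PTU mice 9 to 12 gave 46, 51, 49 and 34 counts, and PTU+TH mice 13 to 16 gave 15, 13, none and 7. This corresponds to a mean of 1.88 ± 0.41 CPM without and 0.35 ± 0.27 CPM with TH, a fitted 5.16-fold fall (log2 ratio -2.37, SE 0.56, edgeR adjusted p = 0.0497). The groups did not overlap, and PTU+TH mouse 15 had no count, which allows up to 0.136 CPM by counting error. Leaving out 1 library at a time ended the call in 7 of 8 cases, all but mouse 15, with edgeR adjusted p up to 0.153. It was 0.14 without mice 15 and 16, and 0.343 with Y-linked counts as a covariate (log2 ratio -1.79). The call was also lost with limma voom (0.0547, log2 ratio -3.00), upper-quartile scaling (0.0535) and library totals only (0.0662).

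The other tolloids were not called. Tll1 stood at 16.5, 13.0, 23.5 and 23.2 CPM in mice 9 to 12 and at 22.1, 25.2, 21.2 and 29.7 CPM in mice 13 to 16, so that the groups overlapped (log2 ratio 0.37, SE 0.19, edgeR adjusted p = 0.448). Bmp1, the procollagen C-proteinase, was at 33.5 ± 6.14 and 34.6 ± 4.75 CPM (log2 ratio 0.04, approximate 95% interval -0.29 to 0.38).

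All 5 ADAMTS-like genes had fitted log2 ratios above 0, from 0.17 to 1.72, and 1 of them was called. Adamtsl5 (chromosome 10, 80339110 to 80348412, minus strand) had 11, 11, 6 and 7 counts in PTU mice 9 to 12 and 45, 24, 21 and 23 in PTU+TH mice 13 to 16. Every PTU+TH library exceeded every PTU library, and mouse 13 was far above the other 3 at 1.90 CPM. The means were 0.35 ± 0.06 and 1.19 ± 0.48 CPM, a 3.30-fold rise (log2 ratio 1.72, SE 0.41, edgeR adjusted p = 0.0478). The call was lost whichever of the 8 libraries was left out (edgeR adjusted p 0.0628 to 0.167), with limma voom (0.0746), and without mice 15 and 16 (0.223). In edgeR it was also lost with Y-linked counts as a covariate (0.117), library totals only (0.0738) and no filter beyond 1 count (0.054).

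Its relatives had more counts and smaller differences. Adamtsl1 ranged from 31.3 to 54.1 CPM without TH and from 41.5 to 53.7 CPM with it (log2 ratio 0.29, edgeR adjusted p = 0.468). Adamtsl2, which binds fibrillin microfibrils, reached 12.0 CPM in mouse 10 where the other PTU mice had 5.03 to 8.67 CPM, and 14.8 CPM in PTU+TH mouse 15 against 8.18 to 9.49 CPM in the other 3. These are the libraries with the most endothelium and mural markers of their groups, and the part of those cells in the level of Adamtsl2 was not tested. It was not called (log2 ratio 0.41, edgeR adjusted p = 0.628), nor were Adamtsl4 and Adamtsl3 (log2 ratios 0.39 and 0.17, edgeR adjusted p = 0.529 and 0.911).

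**Figure D3:**
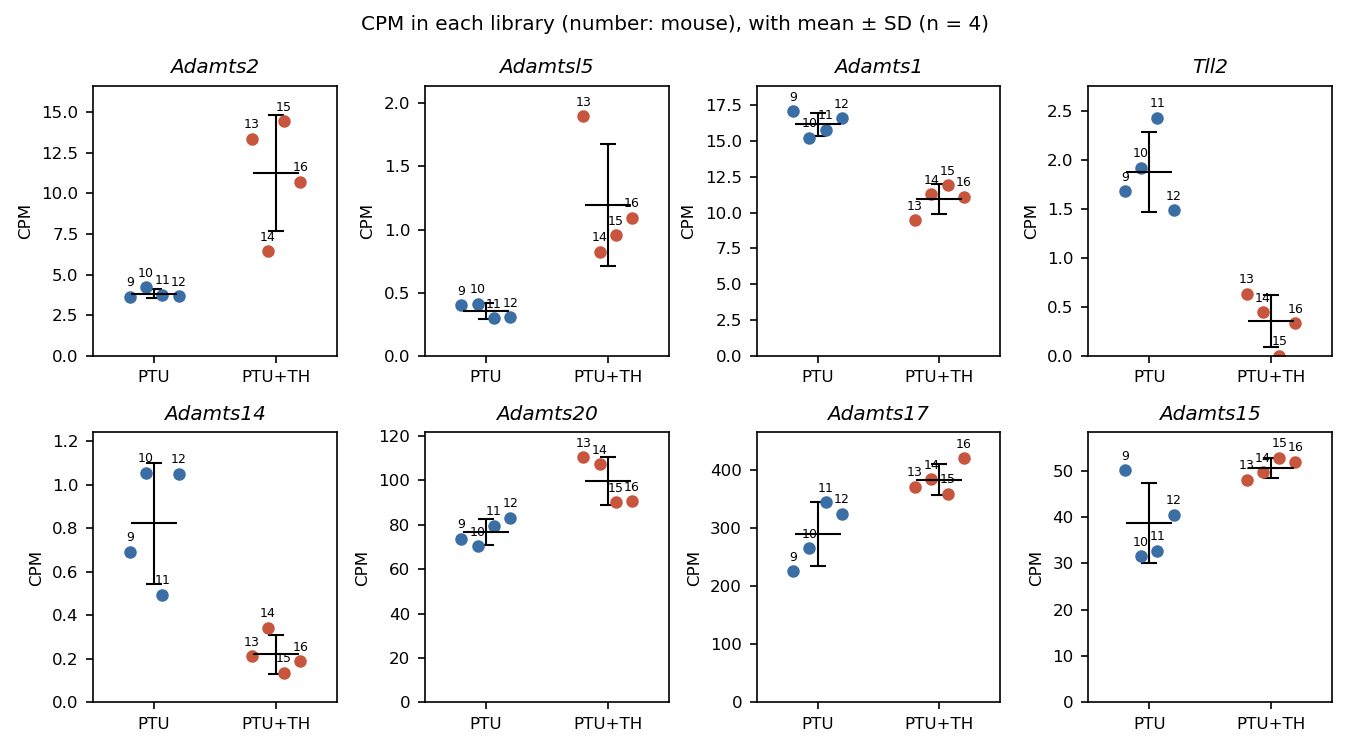
CPM of 8 genes in each library (points, with mouse numbers) by group, with mean and SD (n = 4). In the upper row are the 4 called genes, whose groups do not overlap, and in the lower row are 4 ADAMTS genes with an unadjusted p under 0.05 that were not called, of which Adamts15 overlaps through PTU mouse 9. Adamts10, also uncalled at such a p and with groups that overlap, is not shown.

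Promoter sequence is shown for the 4 called genes, the genes that passed the test. The letters are the 250 bases before the RefSeq transcription start (GRCm38.p6), 5′ to 3′ on the strand of the gene, at chr11:50601835-50602084 (plus) for Adamts2, chr10:80348449-80348698 (minus) for Adamtsl5, chr16:85803114-85803363 (minus) for Adamts1 and chr19:41206775-41207024 (minus) for Tll2. Capitals mark matches on either strand to AGGTCA, the half-site of TH receptors and other nuclear receptors, to the GC box GGGCGG and to the TATA box TATAAA.
Adamts2: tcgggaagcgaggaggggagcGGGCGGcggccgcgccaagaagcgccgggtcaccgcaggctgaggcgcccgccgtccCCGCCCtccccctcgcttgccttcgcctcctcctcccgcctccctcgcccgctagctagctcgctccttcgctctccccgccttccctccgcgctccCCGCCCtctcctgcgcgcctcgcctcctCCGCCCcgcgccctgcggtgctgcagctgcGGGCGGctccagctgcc
Adamtsl5: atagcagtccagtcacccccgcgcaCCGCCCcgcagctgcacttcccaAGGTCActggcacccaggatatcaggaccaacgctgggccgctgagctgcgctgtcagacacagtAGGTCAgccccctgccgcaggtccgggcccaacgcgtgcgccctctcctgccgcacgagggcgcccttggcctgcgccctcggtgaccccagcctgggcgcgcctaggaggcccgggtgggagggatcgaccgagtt
Adamts1: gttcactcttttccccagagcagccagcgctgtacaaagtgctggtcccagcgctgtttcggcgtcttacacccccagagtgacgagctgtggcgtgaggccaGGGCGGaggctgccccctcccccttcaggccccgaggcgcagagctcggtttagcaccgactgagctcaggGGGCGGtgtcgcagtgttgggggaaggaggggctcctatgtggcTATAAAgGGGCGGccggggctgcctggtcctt
Tll2: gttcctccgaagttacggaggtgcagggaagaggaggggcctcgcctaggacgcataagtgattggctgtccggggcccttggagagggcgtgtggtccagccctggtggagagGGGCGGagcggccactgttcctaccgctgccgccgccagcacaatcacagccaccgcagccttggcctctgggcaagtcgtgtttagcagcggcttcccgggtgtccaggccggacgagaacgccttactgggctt

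Adamtsl5 alone of the 4 windows held AGGTCA, with 2 matches that begin 202 and 137 bases before the start. AGGTCA occurs in 14% of all 32851 promoter windows of this length and in 5 of the 41 windows that matched 38 of the 54 genes. The direct repeat, 2 AGGTCA half-sites in a row with any 4 bases between them, occurred in none of the 4 and in 5 windows overall (0.0152%). The GC box was present in all 4, with 5 matches in Adamts2, 3 in Adamts1 and 1 each in Adamtsl5 and Tll2, and is found in 21 of the 41 windows of the families and in 32.7% of all windows. Adamts1 alone had a TATA box, 32 bases before the start, where 12.4% of all windows have one in the 250 bases. A match of letters is a description of the sequence and says nothing of binding in these nuclei.

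Of the 19 ADAMTS genes, all tested, 10 had a fitted log2 ratio above 0 and 9 below. Adamts20, a versican protease, was at 73.7, 70.2, 79.6 and 83.1 CPM in PTU mice 9 to 12 and at 110.5, 107.2, 90.2 and 90.5 CPM in PTU+TH mice 13 to 16. The groups did not overlap, and mice 13 and 14 were higher than mice 15 and 16. The gene was just outside the threshold (log2 ratio 0.38, SE 0.10, edgeR adjusted p = 0.0676). It passed with upper-quartile scaling (0.0491), DESeq2 (0.0251), Y-linked counts as a covariate (0.0371) and the mouse sets described next (0.0396).

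Adamts17, a protease linked to fibrillin microfibrils, was at 225.7, 265.8, 344.9 and 325.3 CPM in mice 9 to 12 and at 371.3, 384.4, 359.3 and 420.8 CPM in mice 13 to 16. No PTU mouse reached the lowest PTU+TH mouse, but PTU mice 11 and 12 were far above 9 and 10, and the gene was not called (log2 ratio 0.40, SE 0.14, edgeR adjusted p = 0.198). With mice 9, 10, 13 and 14 set apart from mice 11, 12, 15 and 16 as a covariate, a split by number that no label explains, its adjusted p was 0.0452. Mmp16 showed the same unevenness among the PTU mice.

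Adamts15, a proteoglycan-cutting member, reached 50.1 CPM in mouse 9 but 31.5, 32.7 and 40.5 CPM in mice 10 to 12, against 48.0 to 52.8 CPM in PTU+TH. Mouse 9 alone overlapped with the PTU+TH group. With it the edgeR adjusted p was 0.205 (log2 ratio 0.39), and without it 0.0149 (0.54). Its neighbour Adamts8 lies 20.1 kb away on the opposite strand, shares part of its body with Gm29724, and was not called (log2 ratio 0.23, edgeR adjusted p = 0.602).

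Adamts10, a relative of Adamts17 with the same link to fibrillin, averaged 130.2 ± 11.8 CPM without and 111.7 ± 12.2 CPM with TH (log2 ratio -0.22, unadjusted p = 0.0488, edgeR adjusted p = 0.387). Adamts6 and Adamts16 were not called either (log2 ratios -0.11 and -0.19, edgeR adjusted p = 0.834 and 0.401). In all, 11 of the 40 tested genes (27.5%) had an unadjusted p under 0.05, against 12.8% of all tested genes. The proteoglycan protease Adamts4 was not called (log2 ratio -0.49, edgeR adjusted p = 0.576). It was uneven among the PTU mice, at 4.41 and 4.52 CPM in mice 9 and 10 and 1.93 and 2.62 CPM in mice 11 and 12, against 1.86 to 3.32 CPM in PTU+TH.

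No MMP was called among the 12 tested (edgeR), where 2.12% of all tested genes were. Of the 12, 2 (16.7%) had an unadjusted p under 0.05, against 12.8% of all tested genes. DESeq2 and limma voom also called no MMP. Mmp16, which encodes a membrane-type MMP, was at 548.5, 573.5, 751.0 and 733.6 CPM in PTU mice 9 to 12 and at 534.1, 564.5, 529.3 and 667.8 CPM in PTU+TH mice 13 to 16. The groups overlapped, and the log2 ratio was -0.18 with an approximate 95% interval of -0.54 to 0.18 (edgeR adjusted p = 0.698). Mmp24, a membrane-type MMP of neurons, was the steadiest of the abundant MMPs, at 76.6 ± 2.83 and 75.3 ± 6.36 CPM (log2 ratio -0.02, approximate 95% interval -0.23 to 0.18).

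Mmp17 and Mmp15, also membrane-bound, had log2 ratios of 0.08 and -0.11 (edgeR adjusted p = 0.866 and 0.886). Mmp9, a gelatinase studied in synaptic plasticity, was low, at 1.20, 1.28, 2.03 and 2.32 CPM in mice 9 to 12 and 2.82, 3.09, 1.77 and 3.24 CPM in mice 13 to 16. PTU+TH mouse 15 fell within the PTU range, and the gene was not called (log2 ratio 0.69, SE 0.30, edgeR adjusted p = 0.349). Mmp23 was similar in size and spread (log2 ratio 0.66, SE 0.28, edgeR adjusted p = 0.335).

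The other 11 MMPs had too few counts to test. Of these, 10 lie next to each other within 427.1 kb of chromosome 9 (7272514 to 7699585), where collagenases, stromelysins and related secreted MMPs are encoded. The 10 genes had 81 counts in all over the 8 libraries, 61 of them from Mmp13 (16, 12, 8, 0, 4, 4, 16 and 1 in mice 9 to 16), and Mmp1a, Mmp3, Mmp7, Mmp10 and Mmp27 had none. Mmp12 had 3, Mmp1b 2, Mmp20 7 and Mmp8 8. A count of 0 allows up to 0.103 to 0.148 CPM per library by counting error. Mmp7 shares part of its body with another gene, so that its 0 is uncertain. Mmp19, the remaining one, lies wholly inside other genes and was listed at 0.

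Of the TIMPs, only Timp2 gave values. Timp1, Timp3 and Timp4 lie inside the synapsin genes Syn1, Syn3 and Syn2 on the opposite strand and were listed at 0 in all 8 libraries. Of 1364 protein-coding genes whose body is, after rounding, wholly covered by other genes, 99.5% were listed at 0. Of 11813 whose body is, after rounding, free of other genes, 21.4% were, so the zeros of the 3 inhibitors say nothing of their expression. Timp2, an inhibitor that also takes part in the activation of Mmp2, was at 240.5, 143.8, 106.7 and 87.3 CPM in PTU mice 9 to 12 and at 107.5, 131.9, 156.3 and 137.7 CPM in PTU+TH mice 13 to 16. PTU mouse 9 stood far above all others, and the fitted log2 ratio was -0.12 with it and 0.25 without it, called in neither case (edgeR adjusted p = 0.935 and 0.507). Mmp2 itself was near 1 CPM in both groups (1.02 ± 0.56 and 0.87 ± 0.29 CPM).

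Levels of different genes can be compared only per length, and the counting of introns is not given in the sources used here, so both lengths were used. Per kb of exon, Mmp16 was highest at 70.7 CPM per kb (mean of 8 libraries), followed by Adamts17 at 43.4 and Timp2 at 35.7. Per kb of the whole gene, Adamts10 was highest at 4.09 CPM per kb, followed by Mmp17 at 3.11, Timp2 at 2.54 and Mmp16 at 2.30. The called genes stood at 2.55 (Adamts1), 0.81 (Adamts2), 0.24 (Tll2) and 0.16 (Adamtsl5) CPM per kb of exon. Per kb of the whole gene they stood at 1.46 (Adamts1), 0.083 (Adamtsl5), 0.037 (Adamts2) and 0.0090 (Tll2) CPM, and Adamts1 moved from rank 16 of the 40 genes on the exon scale to rank 7.

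**Figure D4:**
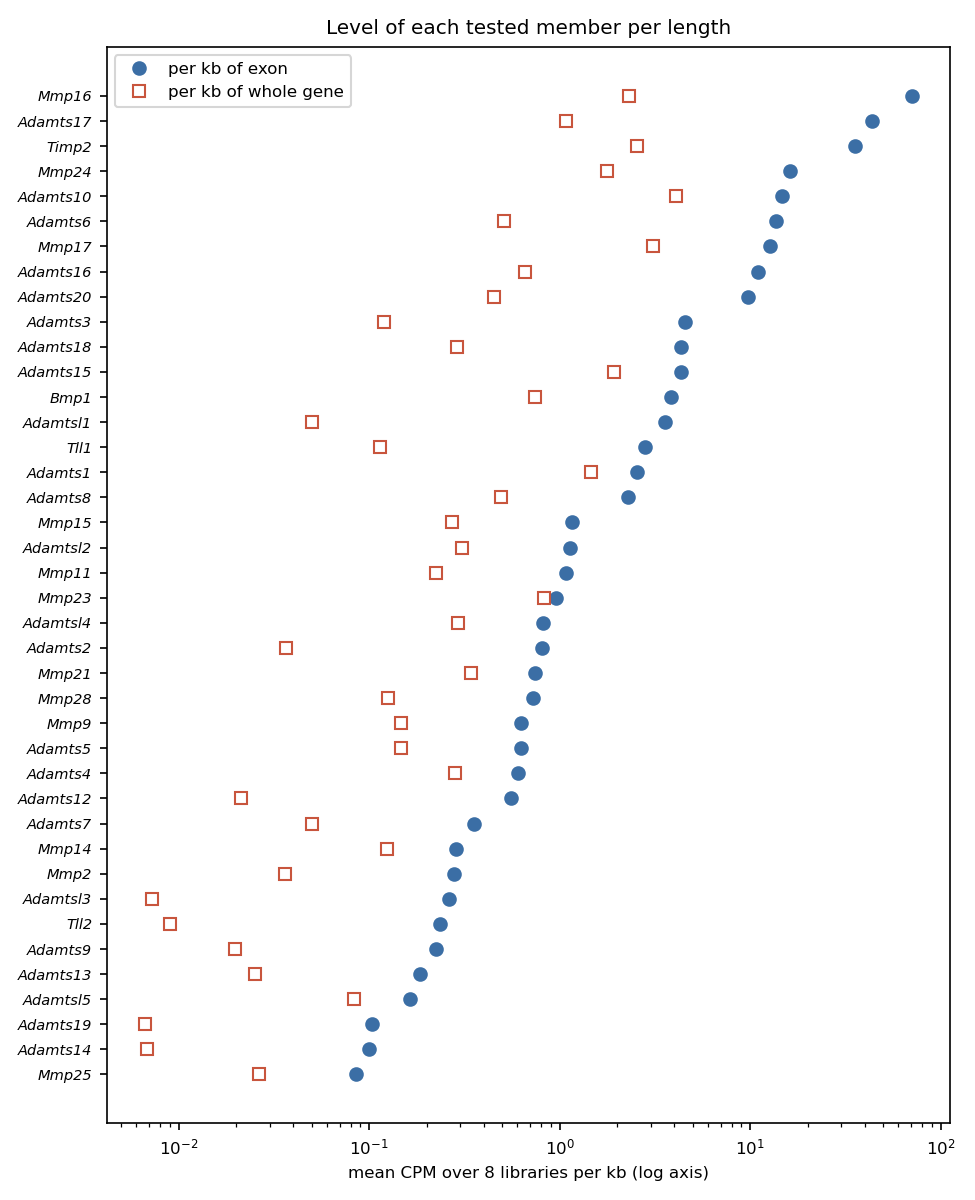
Mean CPM over 8 libraries per kb of exon (filled circles) and per kb of the whole gene (open squares) for the 40 tested genes, on a log axis. Mmp16 leads on the exon scale at 70.7 and Adamts10 on the whole-gene scale at 4.09, and the order of the genes differs between the 2 scales.

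Genes that work with these enzymes were described from 6 lists of substrates, partners and related proteases. The lists were chosen with earlier results of these data known, so their share of calls is a description and no test of an excess. Of 53 tested genes in the lists, 6 (11.3%) were called, 4 higher and 2 lower after TH, against 2.12% of all tested genes (1.49% higher and 0.634% lower), with a median log2 ratio of 0.01 against -0.01 for all genes. Among the 9 lectican and perineuronal net genes, 1 was called higher, the link protein gene Hapln4, which went from 3.07 ± 0.64 to 8.28 ± 0.60 CPM (edgeR adjusted p = 0.0015). Of 18 alternatives, its call was lost in 1, without mice 15 and 16 (adjusted p = 0.050433). The ADAMTS substrates of that list were not called, with log2 ratios of 0.61 for Acan, 0.67 for Bcan, 0.10 for Ncan and 0.00 for Vcan (edgeR adjusted p = 0.131, 0.124, 0.846 and 0.998). In the reelin list none of 4 was called, and Reln averaged 1021 ± 125 CPM without TH and 874.9 ± 68.5 CPM with it (log2 ratio -0.22, edgeR adjusted p = 0.605), with Lrp8, a reelin receptor, at a log2 ratio of -0.09 (edgeR adjusted p = 0.839).

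Of 11 tested microfibril and ADAMTS-like partners, 1 was higher and 1 lower. Ltbp2, a matrix protein related to fibrillin, was at 2.62, 1.73, 2.18 and 3.10 CPM in mice 9 to 12 and at 10.7, 12.4, 8.40 and 8.04 CPM in mice 13 to 16. The groups did not overlap (log2 ratio 2.04, SE 0.23, edgeR adjusted p = 0.000309), and the gene was called under all 18 alternatives. Its relative Ltbp4 averaged 86.4 ± 8.80 CPM without and 60.5 ± 9.11 CPM with TH (log2 ratio -0.51, edgeR adjusted p = 0.0329), a call lost under 9 of the 18, with adjusted p up to 0.403.

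Of 11 tested activators and inhibitors, 1 was called. Plat, the tissue plasminogen activator, was at 23.4, 28.3, 25.4 and 25.7 CPM in mice 9 to 12 and at 17.8, 15.5, 18.4 and 19.3 CPM in mice 13 to 16 (log2 ratio -0.54, SE 0.11, edgeR adjusted p = 0.0268). No PTU+TH mouse reached a PTU mouse, and the call was lost under 10 of 18 alternatives, with adjusted p up to 0.14. The membrane MMP inhibitor Reck was lower in all 4 PTU+TH mice without passing (log2 ratio -0.23, edgeR adjusted p = 0.23).

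Of 11 tested membrane ADAM proteases, 2 were called higher. Adam10, a protease that sheds many neuronal surface proteins, went from 70.1 ± 4.01 to 90.6 ± 4.85 CPM and Adam19 from 59.4 ± 6.11 to 78.5 ± 5.96 CPM (edgeR adjusted p = 0.0345 and 0.049999). Of 18 alternatives, 9 ended the call of Adam10 and 12 that of Adam19 (adjusted p up to 0.34 and 0.258). None of the 7 tested tolloid partners and substrates was called. The smallest p-values there belonged to Mstn (myostatin) and Dmp1, both near 1 CPM or below, at log2 ratios of -1.48 and 1.02 (edgeR adjusted p = 0.306 and 0.493).

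Adamtsl5 and Tll2 were close to the threshold, with edgeR adjusted p of 0.0478 and 0.0497. In the fits that each left out a library, Adamts2 was called in all 8, Tll2 in 1, and Adamts1 and Adamtsl5 in none. With mice 15 and 16 both left out, edgeR called 0 of 41 tested genes of the families, where it called 58 of 18259 genes over all. Of the 41, 7 were at an unadjusted p under 0.05, and the count over all genes at that p was not taken for this fit. All 4 called genes kept their direction under every alternative in which they were tested.

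**Figure D5:**
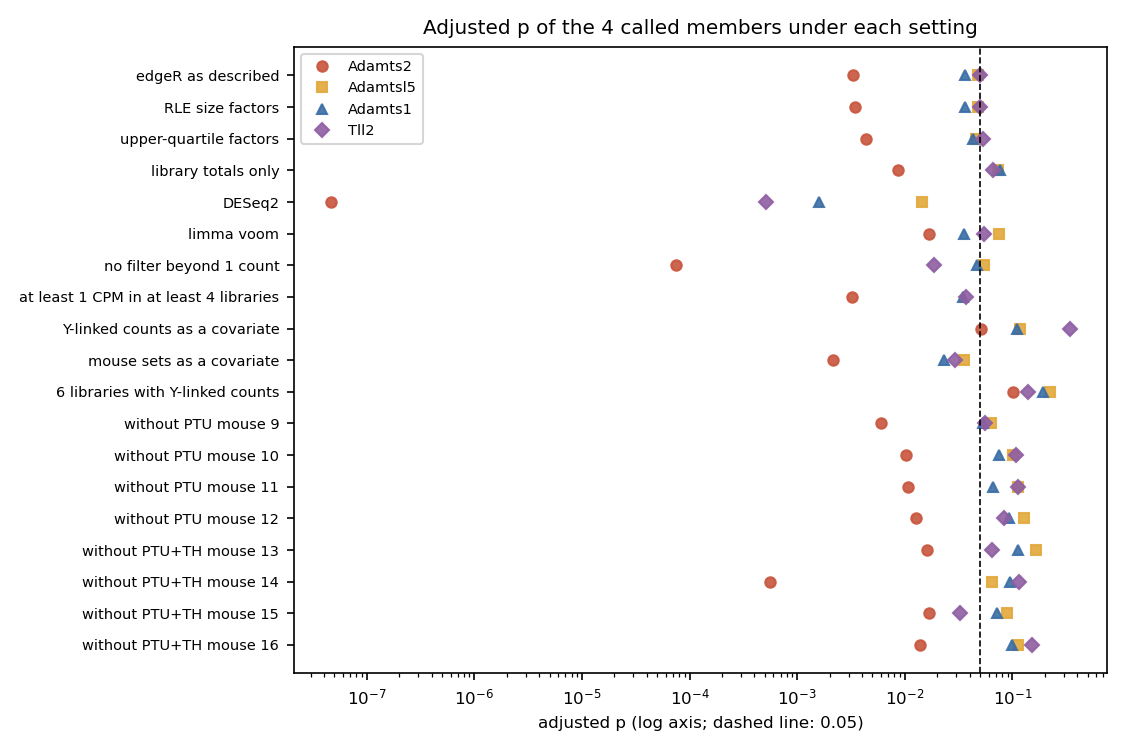
Adjusted p (log axis, dashed line at 0.05) of the 4 called genes under each fit, 1 row per setting. Adamts2 lies left of the line except with the Y-linked covariate and without mice 15 and 16 together, and the other 3 genes lie near the line or to its right in most of the fits that left out a mouse.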

How the data were processed

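Nuclear RNA of sorted cortical GABAergic nuclei was sequenced in 8 libraries, 4 PTU and 4 PTU+TH, grouped by their titles. The authors deposited 1 table of raw read counts per library, by gene symbol, with totals of 21762810 to 29084071. Per the submitters' processing notes, Bowtie2 2.5.3 and the build mm10 (GRCm38) were used. The counting program, annotation, strand and treatment of introns are not given in the sources used here, so overlapping and antisense genes are uncertain. All 55341 symbols matched GENCODE M21, which gave positions and lengths.

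Genes were kept with filterByExpr (17355), scaled by TMM and tested with the robust quasi-likelihood test of edgeR 4.0.16 in R 4.3.3, with the group as the only term and a call at a Benjamini-Hochberg adjusted p under 0.05. CPM values and standard errors come from that fit, and approximate 95% intervals from the standard error with 6 degrees of freedom. The alternatives were other scalings, DESeq2 1.42.0, limma voom 3.58.1, other filters, 2 covariates, leaving out each library and, added after the data were seen, the 6 libraries with Y-linked counts. Tested on simulated data for this comparison (17355 genes, 200 of them altered), the fit found 88% at a log2 ratio of 2, 61% at 1 and 21% at 0.58. Changes of all these sizes can thus be missed, smaller ones more often.

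Genes were named if called, if at an unadjusted p under 0.05, if their groups did not overlap, if among the 4 most abundant of their group, or, in the lists of partners, if called or else among the 2 smallest p-values. Others are named as neighbours, relatives or low genes, or for single libraries, after their values were seen. The members and lists were chosen with earlier results of these data known.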

Additional observations from a re-analysis of the deposited data

Results flagged for a closer look

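A library that stood apart from the remaining 3 of its group was found in 2 of 80 sets of values (40 tested genes in 2 groups), where chance gives about 4. Adamtsl1 was at 41.5 CPM in PTU+TH mouse 14 against 53.2 to 53.7 CPM in the other 3, a gap of 0.96 of the range. Mmp21, a secreted MMP, was at 2.90 CPM in PTU+TH mouse 16 against 1.45 to 1.62 CPM, a gap of 0.888 of the range. Neither gene was called.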

How the results depend on the processing

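No paired analysis was possible because no mouse number occurs in both groups. Over all genes the count of 368 became 723 with DESeq2, 642 with the mouse sets as a covariate, 129 with Y-linked counts as a covariate and 58 without mice 15 and 16. The 4 called genes of the families became 6 with DESeq2, 6 with the mouse sets, 3 under both other filters, 1 with library totals only, 2 with limma voom, 1 with Y-linked counts as a covariate (Adamts20) and 0 without mice 15 and 16 (edgeR, with 7 of 41 at an unadjusted p under 0.05, and no other tool run there). The 6 called genes of the partner lists became 2 with library totals only, 2 with the Y-linked covariate and 1 without mice 15 and 16. That last setting has fewer mice, and for the other settings the cause was not tested. Leaving out each library gave 182 (without mouse 15) to 499 (without mouse 9) genes over all, 1 to 2 of the families and 2 to 7 of the partner lists. Among the genes named by rule, the direction of 4 uncalled ones changed in such fits, with log2 fold changes of -0.065 to 0.394 for Adamtsl3, -0.076 to 0.019 for Mmp24, -0.296 to 0.247 for Timp2 and -0.031 to 0.186 for Bmp1. Scaling moved the median of all genes to between -0.03 and 0.01. Depth limits the called Tll2 and Adamtsl5, with at most 51 counts in any library.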
